A study of Mus musculus with 9 samples.

Results

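Gene deserts are long stretches of the genome without protein-coding genes, and many of them hold distal enhancers, short stretches of open DNA to which transcription factors bind and which can act on genes far away. The regions described here are stretches of open chromatin in mouse blood stem and progenitor cells whose midpoint lay outside every protein-coding gene of chromosomes 1 to 19 and more than 100 kb from the nearest gene end. They were chosen by position alone. Overlapping peaks of all 9 peak lists were merged, regions with a peak in 2 or more lists were kept, and 6115 of 95786 such regions (6.38%) met the rule.

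Open chromatin had been mapped by ATAC-seq, in which the transposase Tn5 cuts accessible DNA, in cells sorted from bone marrow of C57BL/6 mice. Multipotent progenitors (MPPs) lacking the retinoid X receptors RXRα and RXRβ gave 2 libraries (MPP KO 1 and 2) and wild-type MPPs 2 (MPP WT 1 and 2). Long-term haematopoietic stem cells (LT-HSCs) lacking both receptors gave 3 libraries (LT-HSC KO 1, 2 and 4) and wild-type LT-HSCs 2 (LT-HSC WT 2 and 3). Lineage-negative cells of pooled animals were enriched before the sort in every group. The labels give neither age nor what drove the deletion. Nothing in them ties a replicate to animals of its own, so each p-value here reflects variation among libraries that may be technical. In bulk samples a change in cell composition and a change within cells cannot be told apart.

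Retinoid X receptors are nuclear receptors that pair with the retinoic acid, liver X and other receptors on DNA. LT-HSCs sustain blood formation for life and mostly rest, and MPPs are their more proliferative descendants. Large deserts around genes for developmental and blood transcription factors, such as the one beyond Myc, are known to carry enhancers of those genes in mouse.

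The lists held 78189 to 86353 peaks in MPPs and 22690 to 71586 in LT-HSCs. Read numbers per library are not in the lists, so depth is unknown and a missing peak does not show closed chromatin. To compare lists of equal length, the 22690 strongest peaks of each library by −log10 q-value were also used. A peak in the gene or within 1 kb of it was present at 8 of 9 stem and progenitor marker genes in each MPP library, and at 5, 6, 9, 8 and 8 of 9 in LT-HSC KO 1, KO 2, KO 4, WT 2 and WT 3. Procr and Cd48 had no peak in LT-HSC KO 1 and KO 2. Of 4 B cell marker genes all had a peak in each MPP library, against 0, 0, 1, 2 and 0 in the LT-HSC libraries in the same order. For the 5 mature myeloid marker genes the numbers were 4 in each MPP library and 1, 1, 2, 2 and 1 in the LT-HSC libraries. T cell markers had a peak at 3 or 4 of 5 genes in MPPs and 1 or 2 in LT-HSCs, mature erythroid markers at 1 or 2 of 4 in MPPs, 3 in LT-HSC KO 2 and 0 or 1 in the other LT-HSC libraries, and stromal and endothelial markers at 4 or 5 of 5 in MPPs and 1 to 5 in LT-HSCs. LT-HSC KO 1 and KO 2 also stand apart in deserts, and results that rest on them are given without them where a value could be had. Rxra and Rxrb, the deleted genes, were the nearest gene of 0 desert regions, so desert regions do not check the genotype labels.

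No desert region overlapped a microRNA gene. Deserts of protein-coding genes are not empty of transcripts: 1478 desert regions (24.2%) overlapped a gene of a long non-coding RNA (lncRNA), and 503 (8.23%) lay within 1 kb of the end of a non-coding gene. The label goes wrong at antigen receptor loci, whose gene segments are not counted as protein-coding genes: 82 desert regions overlapped such a segment and 154 lay within 100 kb of one. For 110 non-coding genes a promoter window (250 bases before to 50 after the start) shared 150 bp or more with 1 of 107 desert regions. Of these genes, 22 lay at a region held by all 9 libraries. The windows of 6 such genes are shown because they stand for the patterns described here. Gm26901 and LOC115487176 lie at desert regions held by all 9 libraries. Mexis, a lncRNA gene next to Abca1 that mouse macrophages induce through the liver X receptor, a partner of RXR, lies at a region held only by MPPs. Morrbid, which controls the life span of mouse myeloid cells through the neighbouring Bcl2l11, lies at a region of all MPP libraries and of LT-HSC KO 4 and WT 2. Gm41331 carries 2 abutting RUNX words, and Gm34623 lies at a region of the 3 LT-HSC KO libraries alone. Sequences are RefSeq promoter windows of GRCm38.p6, 5′ to 3′ on the strand of the gene. Capitals mark matches on either strand to 5 short words. The word TGTGGTT stood for RUNX factors. The word AGGAAGT stood for ETS factors and AGATAAG for GATA factors. For AP-1 the letters were TGANTCA. The E-box was searched as CAGNTG. None of the matches marked here overlap another.
Gm26901 (chr1:7398047-7398346, minus strand): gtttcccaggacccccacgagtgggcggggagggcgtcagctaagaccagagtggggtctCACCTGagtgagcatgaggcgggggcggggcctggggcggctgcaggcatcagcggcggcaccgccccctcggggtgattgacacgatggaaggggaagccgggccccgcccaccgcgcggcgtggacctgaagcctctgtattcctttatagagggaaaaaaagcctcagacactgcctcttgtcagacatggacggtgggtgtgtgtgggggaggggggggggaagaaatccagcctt
LOC115487176 (chr9:61013180-61013479, plus strand): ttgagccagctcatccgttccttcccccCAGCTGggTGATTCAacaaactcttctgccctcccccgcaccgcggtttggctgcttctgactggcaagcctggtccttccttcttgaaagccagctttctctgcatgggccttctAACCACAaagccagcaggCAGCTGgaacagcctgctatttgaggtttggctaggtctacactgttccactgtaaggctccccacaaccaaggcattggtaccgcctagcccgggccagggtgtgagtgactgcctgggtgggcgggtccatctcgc
Mexis (chr4:53270183-53270482, minus strand): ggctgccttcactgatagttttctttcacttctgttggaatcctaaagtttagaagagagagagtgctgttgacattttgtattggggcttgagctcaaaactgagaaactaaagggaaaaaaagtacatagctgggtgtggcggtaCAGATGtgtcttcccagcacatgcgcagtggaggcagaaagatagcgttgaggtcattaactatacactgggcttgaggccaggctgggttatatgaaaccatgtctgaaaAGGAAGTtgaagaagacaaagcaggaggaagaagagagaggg
Morrbid (chr2:128429302-128429601, minus strand): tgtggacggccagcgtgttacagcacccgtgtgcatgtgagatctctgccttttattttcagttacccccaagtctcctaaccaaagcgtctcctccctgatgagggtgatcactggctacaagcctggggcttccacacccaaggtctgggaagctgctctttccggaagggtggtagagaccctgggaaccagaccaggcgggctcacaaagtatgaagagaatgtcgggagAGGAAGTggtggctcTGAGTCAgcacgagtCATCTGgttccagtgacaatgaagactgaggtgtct
Gm41331 (chr15:60141576-60141875, plus strand): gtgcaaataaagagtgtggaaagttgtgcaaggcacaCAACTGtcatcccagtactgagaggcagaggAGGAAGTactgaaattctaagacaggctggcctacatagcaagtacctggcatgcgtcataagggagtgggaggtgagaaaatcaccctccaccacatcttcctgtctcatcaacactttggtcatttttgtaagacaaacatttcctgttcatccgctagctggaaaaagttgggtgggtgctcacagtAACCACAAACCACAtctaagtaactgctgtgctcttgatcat
Gm34623 (chr8:60195588-60195887, plus strand): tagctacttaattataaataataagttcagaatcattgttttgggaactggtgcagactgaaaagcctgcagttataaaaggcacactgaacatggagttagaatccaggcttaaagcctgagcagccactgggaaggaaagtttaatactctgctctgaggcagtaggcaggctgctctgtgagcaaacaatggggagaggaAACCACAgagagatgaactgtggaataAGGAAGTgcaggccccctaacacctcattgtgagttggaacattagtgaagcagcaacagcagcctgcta

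Among the 124 windows at desert regions, 24.2% held the ETS word and 16.9% the RUNX word. These shares were 10.1% and 5.52% among 1847 desert windows of non-coding genes without a peak in any list, and 9.37% and 5.32% among all 31396 promoter windows. The other words differed less between these 3 sets: AP-1 in 10.5%, 10.3% and 7.84%, GATA in 4.84%, 5.04% and 3.03%, and the E-box in 46.8%, 54.0% and 51.4%. RUNX and ETS factors, among them Runx1 and Spi1, are central regulators of blood cells. Several windows can belong to 1 gene and overlap, so the shares are a description without a test, and a word is not evidence of binding.

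Desert regions were thinly but unevenly spread. Deserts made up 680 Mb of the 2429 Mb between the first and last genes of the chromosomes (28.0%) and held 8.97 regions per Mb, against 51.3 regions per Mb elsewhere. The distance to the nearest gene end had a median of 183 kb (quartiles 132 and 285 kb), and 102 regions lay more than 1000 kb from any gene. The farthest, chr5:59996551-59997151 between Pcdh7 and G6pd2, lay 1812 kb from the nearest gene end. It ranked 14326, 13173, 9907 and 8223 in MPP KO 1, KO 2, WT 1 and WT 2 (rank 1 is the strongest peak of a list). In LT-HSC KO 1, KO 2, KO 4 and WT 2 it ranked 4603, 15714, 69929 and 47715, and LT-HSC WT 3 had no peak there. Just inside the limit of 100 kb lay a region beside Thbs1 held by 8 libraries and one beside Il20rb held by 5. Just outside it lay one beside Btg1 held by 3 libraries and one beside Ubl3 held by all 9.

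Of 1393 intervals between neighbouring genes that were long enough, 932 held a desert region. The 64 intervals with 20 or more held 2011 regions (32.9% of all). The median gap between neighbouring desert regions of a chromosome, gaps that span genes included, was 18.2 kb, and 42.3% of gaps were 12.5 kb or less. The largest group closer than that, 23 regions within 108 kb, lay between Serp2 and Lacc1.

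The 8 intervals with most desert regions included antigen receptor loci and lay beside genes of several kinds. The interval Adam6a to Zfp386, which holds the immunoglobulin heavy chain segments, had 91 regions, all within 100 kb of a segment. MPP KO 1, KO 2, WT 1 and WT 2 held 79, 84, 81 and 83 of them, and LT-HSC KO 1, KO 2, KO 4, WT 2 and WT 3 held 16, 32, 25, 17 and 4. Between Gm36448 and Dad1, around the T cell receptor alpha and delta segments, lay 46 more. Next came the interval from Id2, an inhibitor of helix-loop-helix factors, to Rnf144a with 54 regions, Cd83 to Jarid2 (Jarid2 is a cofactor of Polycomb repressive complex 2) with 50, Gadd45g to Diras2 with 50, Adgrl2 to Adgrl4 (both adhesion receptor genes) with 45, Runx1 to Setd4 with 44 and Nmbr to Cited2 with 43. Cited2 encodes a transcriptional co-regulator needed by mouse haematopoietic stem cells.

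Desert regions were shared by fewer libraries than regions near genes. All 9 libraries held 429 (7.02%), against 43.4% of regions within 1 kb of a gene end, 9.37% of regions inside genes and 8.44% of other regions outside genes. Only 2 libraries held 1201 (19.6%). Their median width was 380 bp, the same as inside genes and narrower than the 586 bp at gene ends. The MPP libraries held 66.4%, 72.9%, 70.4% and 66.3% of desert regions (KO 1, KO 2, WT 1, WT 2). The LT-HSC libraries held 26.1%, 47.4%, 57.8%, 38.8% and 11.5% (KO 1, KO 2, KO 4, WT 2, WT 3). LT-HSC WT 3, with the lowest share, has a list of 22878 peaks, and LT-HSC KO 1 one of 22690.

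Of the 429 desert regions held by all 9 libraries, 196 were among the 22690 strongest peaks of every library. The 5 with the best worst rank are named. The region chr15:63647976-63648695 lies between Myc and Gsdmc, 1658 kb from Myc and 128 kb from Gsdmc. Myc encodes a transcription factor that drives growth, and an enhancer cluster active in blood cells is known far downstream of it in mouse. The region ranked 1007, 804, 1524 and 2286 in MPP KO 1, KO 2, WT 1 and WT 2. It ranked 421, 331, 371, 234 and 674 in LT-HSC KO 1, KO 2, KO 4, WT 2 and WT 3. Every LT-HSC library thus ranked it higher than any MPP library did, in lists that differ in length. The deposited fold enrichment over background, which is the authors' own value for each peak, was 22.2, 22.1, 22.1 and 21.0 in the MPP libraries and 15.7, 19.6, 18.9, 19.4 and 18.4 in the LT-HSC libraries.

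The other 4 constitutive regions lay between Ctnna3 and Reep3 (ranks 204 to 2070), between F2rl3 and Isx (151 to 2541), between Pcmtd1 and Sntg1 (162 to 2655) and between Klf14 and Mkln1 (503 to 3428). The Pcmtd1 to Sntg1 region, chr1:7397383-7398496, contains the whole Gm26901 window printed above, whose letters include 1 E-box word and none of the other 4. The Klf14 to Mkln1 region, chr6:31126321-31127017, lies in the lncRNA gene Lncpint. In F2rl3 to Isx and Pcmtd1 to Sntg1, LT-HSC KO 1 and KO 2 had ranks of 151 to 306, against 1977 to 2556 in LT-HSC KO 4, WT 2 and WT 3. In Klf14 to Mkln1, LT-HSC KO 1 and KO 2 had the weakest ranks of the 9 libraries, 3373 and 3428.

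**Figure D1:**
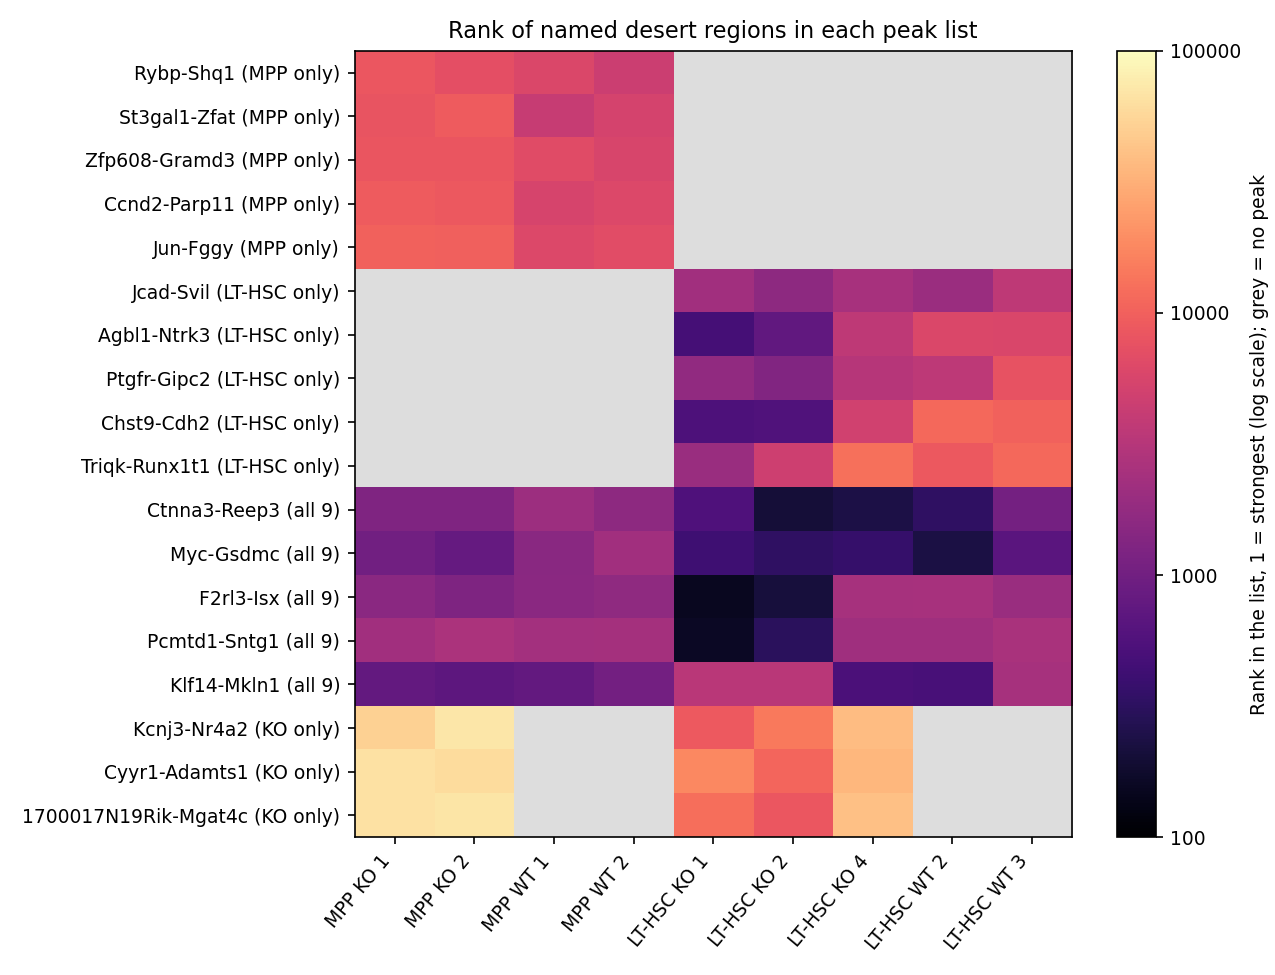
Rank of 18 named desert regions (rows, by the genes on either side) in the 9 peak lists (columns); darker is stronger on a log scale and grey means no peak. The 5 regions held by all libraries are dark across the row, and the 3 regions held only by KO libraries are pale in MPPs.

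In the Myc to Gsdmc interval as a whole lay 33 desert regions, 3 of them held by all 9 libraries and 12 only by MPPs. MPP KO 1, KO 2, WT 1 and WT 2 held 26, 27, 30 and 30, and LT-HSC KO 1, KO 2, KO 4, WT 2 and WT 3 held 5, 13, 12, 12 and 5. The WT MPP libraries held 3 or 4 more of these regions than the KO MPP libraries, and this interval was not tested alone. A second region near Gsdmc, chr15:63665296-63665905, was held by all libraries, with ranks of 22650 to 29142 in MPPs and 2662 to 5351 in LT-HSCs. The remaining one of the 3, chr15:62106465-62106984, lies in Pvt1, the lncRNA gene beside Myc, with ranks of 15874 to 20133 in MPPs and 8604 to 16082 in LT-HSCs.

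The share of a library's peaks that lies in deserts was then compared. In full lists it was 5.40%, 5.52%, 5.41% and 5.30% in MPP KO 1, KO 2, WT 1 and WT 2. In LT-HSC KO 1, KO 2, KO 4, WT 2 and WT 3 it was 7.33%, 8.32%, 5.65%, 4.87% and 3.15%. The 95% Wilson intervals of the 4 MPP libraries, from 5.15% to 5.68% in all, overlapped one another, and those of the 5 LT-HSC libraries did not. These intervals cover counting error only. At equal list length, deserts held 3.45%, 3.44%, 3.41% and 3.30% of the peaks of the same MPP libraries. For the LT-HSC libraries in the same order these values were 7.33%, 7.40%, 4.13%, 3.72% and 3.12%. LT-HSC KO 1 and KO 2 thus held over 7% of their strongest peaks in deserts, and the other 7 libraries 3.12% to 4.13%.

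**Figure D2:**
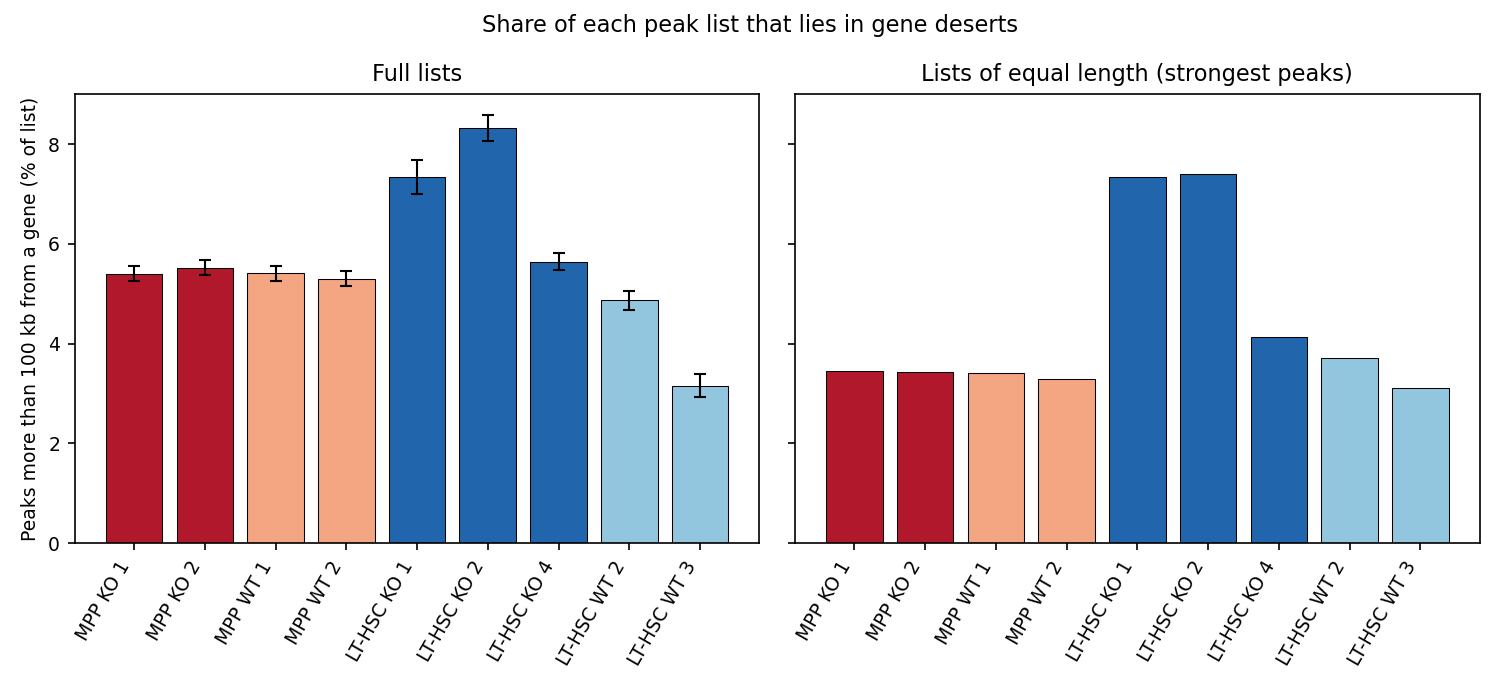
Percent of peaks more than 100 kb from a gene in each library, in full lists (left, bars with 95% Wilson intervals) and among the 22690 strongest peaks (right). LT-HSC KO 1 and KO 2 stand above the other 7 libraries in both panels.

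By cell type, 3.40% ± 0.0701 of the strongest MPP peaks (SD, n = 4 libraries) and 5.14% ± 2.06 of the strongest LT-HSC peaks (SD, n = 5) lay in deserts, a difference of −1.74 percentage points (two-sided exact permutation p = 0.198, Benjamini-Hochberg adjusted p = 0.265 over 8 tests of desert shares). In full lists the difference was −0.46 points (exact permutation p = 0.738, adjusted p = 0.738). Without LT-HSC KO 1 and KO 2 it was −0.26 points in the strongest peaks (exact permutation p = 0.4, adjusted p = 0.508) and turned to 0.85 points in full lists (exact p = 0.143, adjusted p = 0.457). Without LT-HSC WT 3 it was −2.25 points in the strongest peaks (exact permutation p = 0.0286, the smallest that 4 against 4 libraries allow, adjusted p = 0.0667). None of the cell type differences passed the adjusted threshold.

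By genotype, within each cell type, every KO library had a larger desert share of its strongest peaks than every WT library. KO MPPs had 3.44% ± 0.00312 and WT MPPs 3.35% ± 0.0810 (SD, n = 2 each), a difference of 0.09 points. KO LT-HSCs had 6.29% ± 1.87 (SD, n = 3) and WT LT-HSCs 3.42% ± 0.421 (SD, n = 2), a difference of 2.87 points. Over both cell types the mean KO minus WT difference was 1.48 points (two-sided exact permutation within cell type over 60 labellings, p = 0.117, adjusted p = 0.233). No labelling of these values with KO higher could give a p below 0.117, so the test could not pass in this direction. In full lists it was 1.60 points (exact permutation p = 0.1, adjusted p = 0.233). Without LT-HSC KO 1 and KO 2 it was 0.40 points in the strongest peaks (exact p = 0.222, adjusted p = 0.457), and without LT-HSC WT 3 1.33 points (exact p = 0.0417, adjusted p = 0.0667). Over peaks more than 1 kb from gene ends the differences were 2.18 points in the strongest peaks and 2.16 in full lists (exact p = 0.117 each, adjusted p = 0.233). With KO higher, the smallest exact permutation p within reach was 0.0833 in full lists and 0.117 for both shares away from gene ends. None of the 8 tests passed, and those by genotype could not pass with KO higher.

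The surplus of LT-HSC KO 1 and KO 2 grew with distance from genes. At 0 to 10 kb they were the lowest of the 9 libraries, with 7.20% and 7.47% of their strongest peaks against 9.09% to 9.51% in the others. At 10 to 50 kb all 9 libraries held 10.1% to 11.7%. More than 500 kb from genes the shares were 0.22%, 0.18%, 0.19% and 0.18% in MPP KO 1, KO 2, WT 1 and WT 2. They were 0.94% and 0.89% in LT-HSC KO 1 and KO 2, and 0.34%, 0.31% and 0.24% in LT-HSC KO 4, WT 2 and WT 3. At equal list length all LT-HSC libraries thus lay above all MPP libraries at this distance, by 54 peaks in LT-HSC WT 3 against 50 in MPP KO 1. In full lists this order did not hold. There LT-HSC WT 3 (0.24%) lay below the MPP libraries (0.37% to 0.41%) and LT-HSC WT 2 (0.38%) within their range. LT-HSC KO 1, KO 2 and KO 4 (0.94%, 1.08% and 0.47%) lay above it. The comparison was made after the values were seen and was not tested.

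**Figure D3:**
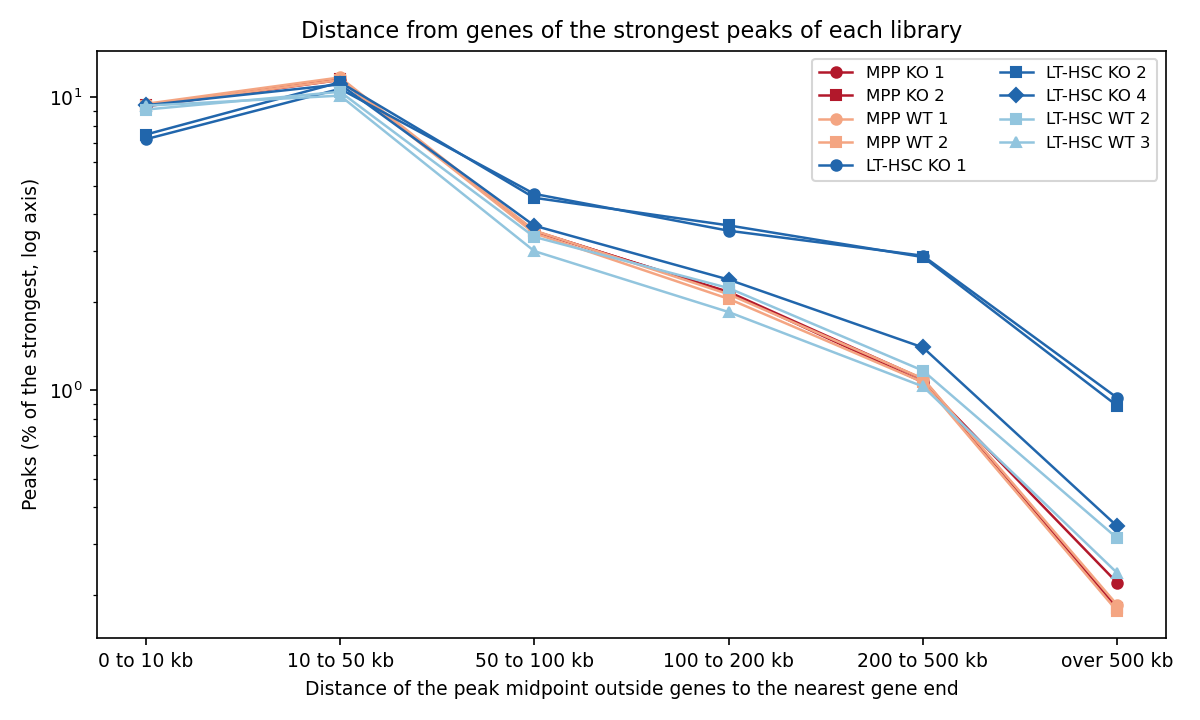
Percent of the 22690 strongest peaks of each library (y axis, logarithmic) by distance outside genes to the nearest gene end (x axis, 6 classes). The lines of LT-HSC KO 1 and KO 2 lie lowest at 0 to 10 kb (7.20% and 7.47%) and highest from 50 kb on, reaching 0.94% and 0.89% beyond 500 kb.

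The difference between libraries was also seen at the top of the lists. Of the 5000 strongest peaks, 1.32%, 1.38%, 1.16% and 1.22% were in deserts in MPP KO 1, KO 2, WT 1 and WT 2. For LT-HSC KO 1 and KO 2 the values were 5.54% and 5.34%, above those of LT-HSC KO 4 (2.68%), WT 2 (2.06%) and WT 3 (1.36%). The share within 1 kb of gene ends among the strongest peaks, where open promoters lie, was 37.1% to 37.4% in MPPs, 37.2% in LT-HSC KO 1, 34.9% in both LT-HSC KO 2 and KO 4, and 37.9% and 39.9% in LT-HSC WT 2 and WT 3. LT-HSC KO 1, at 37.2%, was within the range of MPPs there. Median −log10 q over all peaks was 9.90 and 10.1 in LT-HSC KO 1 and KO 2, the lowest of the 9 libraries, and 13.4 to 22.9 in the other 7. The part of depth or signal over background in the desert surplus was not tested.

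Region by region, MPP and LT-HSC libraries were separated at many desert regions. Every MPP and no LT-HSC library held 1209 of the 3602 desert regions that 3 to 6 libraries held, or 33.6%, where 31.9% of all tested regions did so. The reverse pattern was found at 40 desert regions (1.11%), where 0.442% of all tested regions showed it. Each such region reached the same values (two-sided Fisher's exact test p = 0.00794, adjusted p = 0.0245). Desert regions made up 7.28% of all regions held only by MPPs and 17.4% of the 230 held only by LT-HSCs. At the shorter, equal lists the numbers were 166 regions held only by MPPs (18.3% of 908 tested, background 21.1%) and 154 held only by LT-HSCs (17.0%, background 10.9%). For MPP-only regions the desert share was near the background in full lists and below it at equal length, and for LT-HSC-only regions it was above the background in both. Without LT-HSC KO 1 and KO 2 the full lists gave 51 LT-HSC-only desert regions (2.23% of 2282 tested, background 1.6%), which were 10.4% of all LT-HSC-only regions, and 1294 MPP-only ones (56.7%, background 56.1%). At equal length without them, 35.8% of tested desert regions were LT-HSC-only (background 31.5%). There 38.4% were MPP-only (background 36.7%), so the MPP-only share was then no longer below the background. Without LT-HSC WT 3 alone, the full lists gave 207 LT-HSC-only desert regions (12.5%, background 4.39%). Without LT-HSC KO 1 alone, which has a shorter list than LT-HSC WT 3, they gave 46 (3.01%, background 1.84%). The part of list length in these numbers was not tested.

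Strong separated regions were among the 22690 strongest peaks of every library of one cell type and absent from the full lists of the other. There were 79 for MPPs (1.29% of desert regions, background 1.06%) and 20 for LT-HSCs (0.327%, background 0.16%). Without LT-HSC KO 1 and KO 2 the LT-HSC number was 29 (0.53%, background 0.299%), and without LT-HSC WT 3 it was 35 (0.572%, background 0.23%). The 5 strongest MPP regions lay beside Rybp (Rybp to Shq1), St3gal1 (St3gal1 to Zfat), Zfp608 (Zfp608 to Gramd3), Ccnd2 (Ccnd2 to Parp11) and Jun (Jun to Fggy). Ccnd2 encodes cyclin D2, which drives entry into the cell cycle, Jun an AP-1 factor, and Rybp a subunit of Polycomb repressive complex 1. The Ccnd2 region, chr6:127253889-127254410, lies 102 kb from that gene and ranked 9062, 8712, 5487 and 6208 in MPP KO 1, KO 2, WT 1 and WT 2. The Jun region, chr4:95209270-95209765, lies 157 kb from Jun and ranked 10259, 10077, 6154 and 6865. In all 5 of these MPP regions, both WT MPP libraries ranked the region higher than both KO MPP libraries did. No LT-HSC library had a peak at any of them. Both WT MPP lists also had a higher median −log10 q over all peaks than both KO MPP lists. The part of genotype in this order was not tested.

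The 5 strongest LT-HSC regions lay in the intervals Jcad to Svil, Agbl1 to Ntrk3, Ptgfr to Gipc2, Chst9 to Cdh2 and Triqk to Runx1t1. Ntrk3 encodes a neurotrophin receptor, Cdh2 the adhesion protein N-cadherin, and Runx1t1 a co-repressor that forms part of a leukaemia fusion protein with Runx1. The Jcad to Svil region ranked 2256, 1628, 2505, 2020 and 3666 in LT-HSC KO 1, KO 2, KO 4, WT 2 and WT 3 and had the narrowest range of the 5. The Agbl1 to Ntrk3 region, chr7:77507599-77508032, ranked 475, 775, 3716, 5942 and 5880. There, as in Chst9 to Cdh2 with ranks of 543 and 576 against 4967 to 11431, the region stood highest in LT-HSC KO 1 and KO 2. No MPP library had a peak at any of the 5.

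Among all 40 LT-HSC-only desert regions were single regions in intervals that carried many MPP-only regions. In the Runx1 to Setd4 interval 18 of 44 regions were held only by MPPs and 1 only by LT-HSCs. This region, chr16:93129484-93129887, 304 kb from Runx1, ranked 11552, 11369, 5756, 9466 and 8220 in LT-HSC KO 1, KO 2, KO 4, WT 2 and WT 3. A neighbour, chr16:93197260-93197790, was held by all 5 LT-HSC libraries (ranks 15924, 11873, 3042, 6373 and 4290) and in MPPs by KO 1 alone, at rank 66673. In the Id2 to Rnf144a interval 16 of 54 regions were held only by MPPs and 1 only by LT-HSCs. Another LT-HSC-only region, chr11:18216741-18217278, lay between Etaa1, its nearest gene at 263 kb, and Meis1 at 663 kb. Meis1 encodes a homeobox factor of haematopoietic stem cells. The region ranked 11704, 10083, 11073, 10592 and 15257 in the LT-HSC libraries. In the Dsel to Cntnap5a interval the LT-HSC-only region lay 1645 kb from the nearest gene, the second farthest of all desert regions. The Triqk to Runx1t1 and Ndfip2 to Spry2 intervals each held 2 LT-HSC-only regions, and Dsel to Cntnap5a, Nr5a2 to Ptprc and Rprm to Galnt13, named as the first by position of the intervals with 1, held 1 each. Runx1 to Setd4, Id2 to Rnf144a, Cd83 to Jarid2 (21 of 50 MPP-only), Mmadhc to Rnd3 (13 of 25) and the heavy chain interval (37 of 91) had most MPP-only regions.

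MPP-only regions made up 20.2% of desert regions at 100 to 200 kb from genes, 19.8% at 200 to 500 kb and 17.1% over 500 kb. LT-HSC-only regions made up 0.465%, 0.93% and 0.768% in these classes, from 16, 20 and 4 regions. Differences between the classes were not tested.

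A larger set of desert regions was absent from MPPs: no MPP library held 1036 desert regions (16.9%), against 6.33% of other regions outside genes, 7.72% of those inside genes and 3.01% at gene ends. Of these regions, LT-HSC KO 1, KO 2, KO 4, WT 2 and WT 3 held 46.1%, 87.1%, 87.0%, 46.8% and 5.02%. Inside genes the same libraries held 22.7%, 58.4%, 95.3%, 72.3% and 8.73% of regions with no MPP peak. Such regions could enter only through LT-HSC libraries, 2 or more of which had to hold them, so these shares describe which libraries let them in and are no comparison between libraries. Without LT-HSC KO 1 and KO 2, 463 of 5470 desert regions (8.46%) had no MPP peak, against 4.31% of other regions outside genes, 5.67% inside genes and 1.81% at gene ends.

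**Figure D4:**
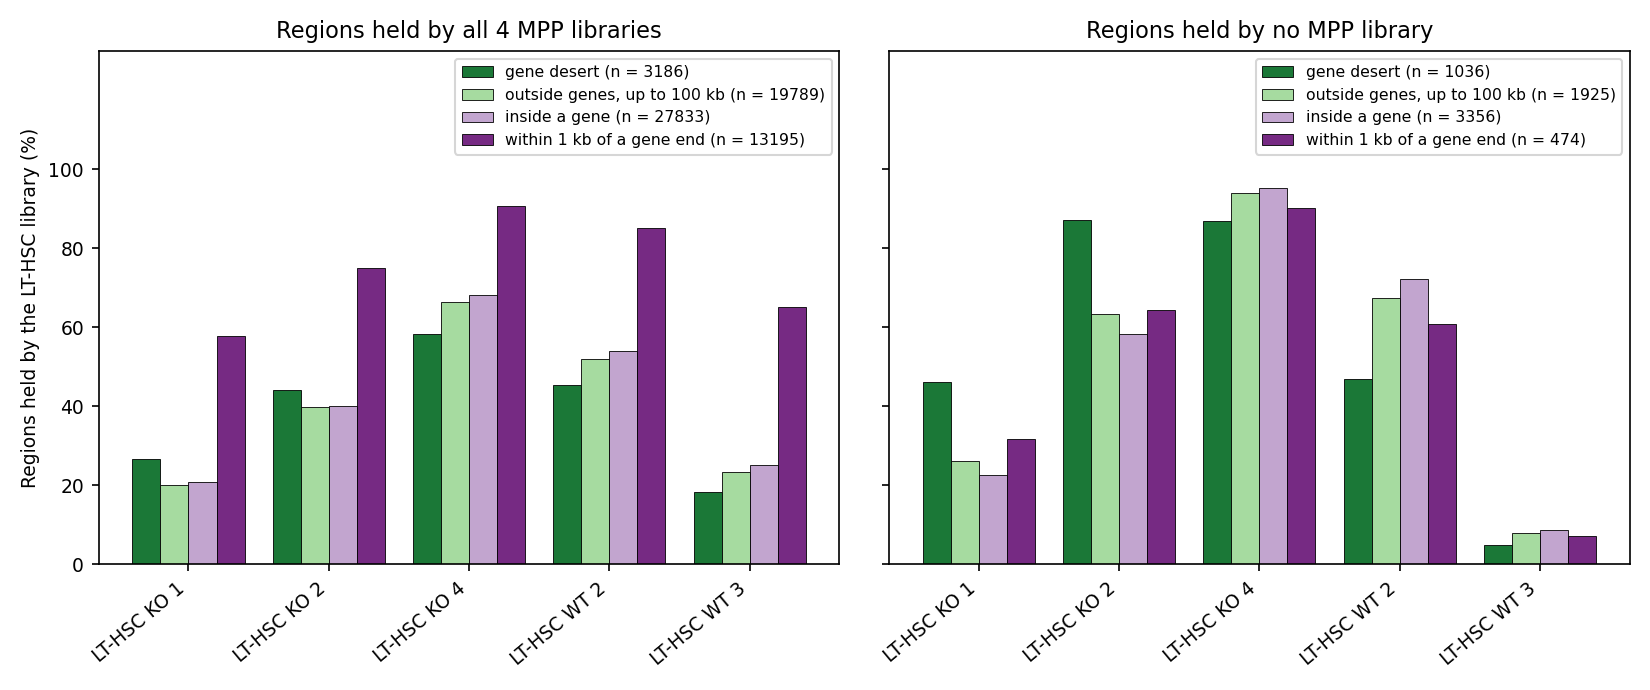
Percent of regions held by each LT-HSC library, by position class, among regions held by all 4 MPP libraries (left) and by none (right); n is the number of regions of each class. Regions with no MPP peak had to be held by 2 or more LT-HSC libraries; of the desert regions among them LT-HSC KO 1 and KO 2 held 46.1% and 87.1%.

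By genotype, no region of any class passed the stratified exact test after adjustment (0 of 1565 tested, 0%; smallest adjusted p = 0.669). At unadjusted p under 0.05, 9 of 141 tested desert regions were held by every KO and no WT library (6.38%, background 2.36%) and 0 by every WT and no KO library (background 0.128%, 2 regions). Each had the smallest possible exact p of 0.0167. The 3 with the best mean rank were chr2:56459477-56459823 between Kcnj3 and Nr4a2, chr16:85677055-85677359 between Cyyr1 and Adamts1, and chr10:100853246-100853627 between 1700017N19Rik and Mgat4c. Nr4a2 encodes an orphan nuclear receptor that can pair with RXR, and the region lies 647 kb from it. It ranked 51488 in MPP KO 1, 70856 in MPP KO 2, 8863 in LT-HSC KO 1, 14456 in LT-HSC KO 2 and 38753 in LT-HSC KO 4. All 9 ranked between 51488 and 75836 in the MPP KO lists, which hold 78189 and 86353 peaks, so they were weak peaks there. A region held by every KO and no WT library keeps this pattern when 1 library is left out. Where regions could still be tested, the number could therefore hardly fall, and it is no check on the 9. It was 26 of 175 tested desert regions without LT-HSC WT 2 (background 6.17%) and 22 of 233 without MPP WT 1 (background 3.48%). The number was 17 of 166 without MPP KO 1 (background 3.73%) and 15 of 210 without MPP WT 2 (background 2.8%). It was 12 of 154 without MPP KO 2 (background 2.25%) and 9 of 145 without LT-HSC WT 3 (background 1.75%). Without any one of the KO LT-HSC libraries no region could be tested, since the smallest p that the remaining libraries allow is 0.0556.

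Within LT-HSCs, each KO library and no WT library held 262 desert regions, 21.7% of the 1209 regions of every class with that pattern. The reverse was found at 1 desert region of 32. In lists of equal length the numbers were 77 of 563 (13.7%) and 4 of 705 (0.567%). Within MPPs, both KO and no WT library held 214 desert regions of 2295 (9.32%), and both WT and no KO library held 216 of 2793 (7.73%). In lists of equal length these were 62 of 846 (7.33%) and 63 of 889 (7.09%). Desert regions were 6.38% of all 95786 regions. The shares within MPPs lay near that value, those of KO LT-HSCs above it and those of WT LT-HSCs below it. These counts within 1 cell type have no test, and the one in LT-HSCs needs LT-HSC KO 1 and KO 2, whose desert shares stand apart.

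Desert regions were grouped by lists of genes according to their nearest gene. Among 26 progenitor and myeloid transcription factors, 11 were the nearest gene of 193 desert regions, of which 55 (28.5%) were MPP-only and 1 LT-HSC-only. Over all desert regions 19.8% were MPP-only and 0.654% LT-HSC-only. Id2 led with 38 regions (14 MPP-only), before Sox4 with 31 (8) and Klf4 with 26 (12); Sox4 and Klf4 encode factors of lymphoid and of monocyte development. Myc had 24 (10 MPP-only). The MPP libraries held 77.2% to 81.9% of the regions of this list, and the LT-HSC libraries 10.9% to 50.3%.

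Of 22 haematopoietic stem cell transcription factors, 6 were nearest to 48 regions, with 12 MPP-only (25.0%) and 1 LT-HSC-only. Runx1 had 26 of them, Meis1 8 and Mycn 8. Of the 48 regions, 10 (20.8%) had no MPP peak, against 16.9% of all desert regions. Without LT-HSC KO 1 and KO 2 these numbers were 7 of 45 (15.6%) and 8.46%. None of the 8 regions nearest to Mycn, a relative of Myc, was MPP-only and 4 had no MPP peak; LT-HSC KO 1, KO 2, KO 4, WT 2 and WT 3 held 2, 5, 8, 6 and 1 of them. Of 26 lymphoid transcription factors, 13 were nearest to 103 regions, 17 of them MPP-only (16.5%) and 0 LT-HSC-only, led by Bcl11a (20), Tcf4 (15) and Tox (14). Cytokine and growth factor receptors were nearest to 46 regions, of which 8 (17.4%) were MPP-only, with Cxcr4, the receptor that keeps stem cells in the marrow, nearest to 19, Kit, the stem cell factor receptor gene, to 9, and Tgfbr2, a receptor gene of TGF-beta, to 9. Growth and cell cycle genes had 43 regions, 10 of them MPP-only (23.3%) and 8 held by all 9 libraries (18.6%, against 7.02% of all desert regions), led by Btg1 (16), an inhibitor of proliferation, Bcl6 (9) and Cdk6 (6).

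Nuclear receptor and retinoid genes, the family to which the deleted receptors belong, had 51 desert regions near 11 of 28 genes. MPP KO 1, KO 2, WT 1 and WT 2 held 60.8%, 78.4%, 70.6% and 58.8% of them, so KO and WT libraries overlapped. LT-HSC KO 1, KO 2, KO 4, WT 2 and WT 3 held 33.3%, 49.0%, 58.8%, 43.1% and 9.80%, and again the groups overlapped. Of these regions 7 (13.7%, against 19.8% of all desert regions) were MPP-only and 1 (1.96%, against 0.654%) was LT-HSC-only; that one lay near Nr5a2, an orphan receptor gene with 15 regions. Nrip1, a co-repressor gene of nuclear receptors, had 10 and Nr4a3 5. Neural and organ developmental regulators had 58 regions, led by Lmo4 (16), Gata6 (8) and Tbx3 (6, as many as Irx3). Of these regions 11 (19%) were MPP-only, against the 19.8% of all desert regions, and 13 (22.4%) had no MPP peak, or 5 of 49 (10.2%) without LT-HSC KO 1 and KO 2.

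Of the 8 gene lists, neuronal adhesion and synaptic genes had the largest share of desert regions without an MPP peak. They were nearest to 53 regions, of which 1 was MPP-only, 3 were LT-HSC-only and 30 (56.6%) had no MPP peak, against 16.9% of all desert regions. The 53 regions also lay farther from genes, at a median of 349 kb, the largest of the 8 lists, against 183 kb over all desert regions. The part of distance in this share was not tested. MPP KO 1, KO 2, WT 1 and WT 2 held 32.1%, 37.7%, 28.3% and 32.1% of the 53. LT-HSC KO 1, KO 2, KO 4, WT 2 and WT 3 held 60.4%, 92.5%, 73.6%, 34.0% and 11.3%. The regions without an MPP peak entered the set through LT-HSC libraries alone, so the order of these shares is a description. Named genes of the list were Flrt2 (9 regions), which encodes an axon guidance protein, and Adgrl3 (6), a latrophilin gene. Of the 9 Flrt2 regions, the MPP libraries held 1, 4, 1 and 3 (KO 1, KO 2, WT 1, WT 2) and the LT-HSC libraries 6, 9, 8, 4 and 1 (KO 1, KO 2, KO 4, WT 2, WT 3). Of the 30 regions with no MPP peak, 10 had a peak in a WT LT-HSC library, against 486 of 1036 over all desert regions. Without LT-HSC KO 1 and KO 2 the list had 31 desert regions, of which 9 (29.0%) had no MPP peak, against 8.46% of all desert regions. The marker genes that lacked a peak in LT-HSC KO 1 and KO 2 are given above, and their part in this pattern was not tested.

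**Figure D5:**
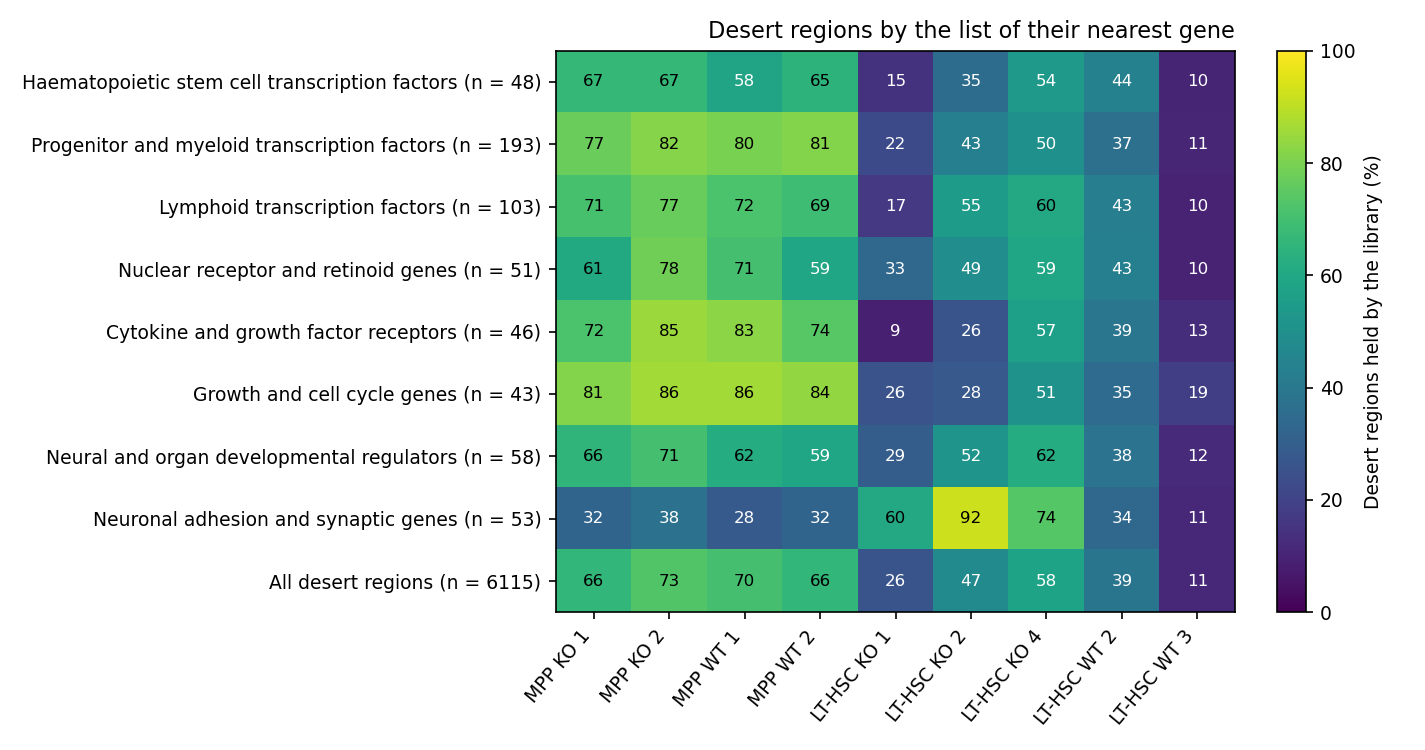
Percent of desert regions held by each library, grouped by the list to which the nearest gene belongs; n is the number of desert regions. The row of neuronal adhesion and synaptic genes is lowest in the 4 MPP libraries (28.3% to 37.7%) and highest in LT-HSC KO 2 (92.5%).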

How the data were processed

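Libraries were made by tagmentation of sorted cells with Tn5. Per the submitters' processing notes, reads were placed on mm10 and the tools included MACS2 2.1.1, HOMER 4.10.3, edgeR 3.20.9, DiffBind 2.6.6, SAMtools 0.1.18, Bowtie2, FastQC and cutadapt 1.7, with no roles stated. The sources used here do not say how reads were shifted for the Tn5 cut or whether duplicates were removed. The authors deposited 1 narrowPeak list per library. Each deposited list gives a fold enrichment, a ratio over background. It also gives each peak's p-value and q-value as deposited, both as −log10. A display score deposited by the authors was not used here. Since read depth is unknown, the presence of a peak was the measurement, and −log10 q ranked peaks within a list.

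Merging the 540767 peaks at 1 bp overlap gave 117465 regions. A peak in at least 2 lists was required, which left 95786. Distances ran from the midpoint to the ends of 20661 protein-coding genes of RefSeq GRCm38.p6, the assembly of mm10. The build was checked by position: gene ends had 18.1% to 39.8% of peaks within 1 kb, and ends shifted by 1 Mb 3.71% to 4.90%. No list of artefact regions was applied. Python 3.11.15, numpy 2.4.6, pandas 2.3.3 and scipy 1.17.1 were used. Library shares were compared by exact permutation of labels (126 labellings for cell type, 60 for genotype within cell type), with Benjamini-Hochberg adjustment over 8 tests. Regions held by 3 to 6 libraries were tested for cell type with Fisher's exact test. Genotype was tested, with cell type as stratum, by exact enumeration over the regions for which p under 0.05 was within reach. Both were adjusted over all tested regions, genic ones included, and the functions were tested on simulated data.

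Regions are named by rule: the 8 intervals with most desert regions, the 5 with most MPP-only and with most LT-HSC-only regions, the 5 best-ranked strong separated regions per direction, the 5 best held by all 9 libraries, the 3 farthest, up to 3 per direction for genotype, up to 3 genes per list and the 2 on either side of 100 kb. Ties went by chromosome and position; beyond the first 2, intervals with most LT-HSC-only regions held 1 each and were taken in that order. Some genes that the rule or the marker lists hold are not reported here. The desert regions, the gene lists and this rule were chosen with earlier results of these data known. Further regions and counts of the Myc, Runx1 and Bcl2l11 intervals, the clusters, the lncRNA windows, Mycn and the Meis1 region were chosen after their values were seen. The planned search for words in the regions themselves was not run, since no genome sequence was used here, and RefSeq promoter windows took its place.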

Additional observations from a re-analysis of the deposited data

Results flagged for a closer look

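The typical rank of desert peaks within a list differed between KO and WT in opposite directions in the 2 cell types. Where 0% is the top of a list, the median desert peak stood at 60.6% in MPP KO 1, at 59.4% in MPP KO 2 and at 58.7% in both MPP WT libraries. It stood at 56.8% in LT-HSC KO 1, 56.2% in KO 2 and 59.1% in KO 4, against 59.96% in LT-HSC WT 2 and 65.3% in WT 3. The KO minus WT difference was 1.37 percentage points in MPPs. It was −5.27 points in LT-HSCs, or −3.53 without LT-HSC KO 1 and KO 2, and whether it differed from that in MPPs was not tested.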

How the results depend on the processing

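No desert share reached an adjusted p under 0.05 in any of the 152 combinations of share and setting (exact permutation, adjusted p from 0.0667 to 0.976, lowest unadjusted p = 0.0286). Part of these could not pass. As reported, no labelling with KO higher could give an exact permutation p below 0.0833. Settings that paired libraries by replicate number, and genotype tests without any KO LT-HSC library, had too few labellings. The MPP minus LT-HSC difference in full lists, −0.46 points, turned to 0.0453 with deserts from 50 kb and to 0.85 without LT-HSC KO 1 and KO 2, and lay between −1.13 and 0.16 when 1 library was left out, turning positive without LT-HSC KO 2. Over peaks away from gene ends it was −1.76 and turned to 0.32 without LT-HSC KO 1 and KO 2. The cause was not tested. The 6115 desert regions became 10937 with a distance of 50 kb, 2672 with 200 kb and 685 with non-coding genes included. With the same changes the 1209 MPP-only regions became 2203, 514 and 96, and at equal list length 166. The 40 LT-HSC-only regions became 24 with 200 kb, 5 with non-coding genes included and 154 at equal list length. They ranged from 40 to 207 when 1 library was left out, the highest without LT-HSC WT 3. The 9 KO-only regions at unadjusted p under 0.05 became 3 with 200 kb, 3 with non-coding genes included, 1 at equal list length and 0 without LT-HSC KO 1 and KO 2, and ranged from 0 to 26 with 1 library left out, 26 without LT-HSC WT 2. The values of 0, with any 1 KO LT-HSC library or both KO 1 and KO 2 left out, are fixed by construction, as the smallest p is then 0.0556. With antigen receptor segments counted as genes, 5961 desert regions remained, 1155 of them MPP-only and 40 LT-HSC-only. Libraries of the same replicate number had correlations of deviations of −0.0880 to 0.0196. These values cannot show whether a number marks shared animals or a shared day. With the number as a replicate block, libraries without a partner of the same number were left out. In every pair of this block, 218 desert regions had a peak in the LT-HSC but not the MPP library. For KO but not WT the number was 33. Both are counts without a test. The same counts over all regions were not made, so they cannot be set against a background. The cell type pairs include LT-HSC KO 1 and KO 2, and the genotype pairs include LT-HSC KO 2. Depth is unknown, so an absent peak may reflect few reads, and list lengths from 22690 to 86353 limit every count of full lists. Leaving out LT-HSC KO 1 and KO 2, the backgrounds with 1 library left out, and counting receptor segments as genes were chosen after seeing the data.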

Other observations

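Desert regions per Mb of desert ranged from 5.67 on chromosome 7 to 15.7 on chromosome 13, where 526 desert regions made up 11.5% of all regions. Clusters in which neighbouring desert regions lay 12.5 kb or less apart numbered 169 with 5 or more members, and 2347 desert regions (38.4%) stood alone. The 23 regions between Serp2 and Lacc1 were held on average by 3.17 of the 4 MPP and 1.61 of the 5 LT-HSC libraries. Behind Klf14 lay clusters of 21 and 17 regions within 83.6 and 71.9 kb, of which the MPP libraries held on average 3.71 and 3.35 and the LT-HSC libraries 1.90 and 2.06. Between Bcl2l11, a cell death gene, and Spdye4c, the interval of Morrbid, lay 37 desert regions. MPP KO 1, KO 2, WT 1 and WT 2 held 35, 34, 35 and 35 of them, and LT-HSC KO 1, KO 2, KO 4, WT 2 and WT 3 held 2, 10, 22, 17 and 7.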
